A study of Homo sapiens with 9 samples.

Results

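The 48 genes described here encode proteins that carry a cell from G2 through mitosis and cytokinesis. They were taken as a list of gene names, drawn up when earlier results of these data were known, and all 48 were found among the 16199 genes listed in at least 1 library. RNA was sequenced from HaCaT cells, an immortalized human keratinocyte line, wild type and kept in serum-free medium after reaching confluence. Untreated cells were compared with cells given 10 nM epidermal growth factor (EGF) for 24 h and with cells given 1 µM bleogen pB1, a cactus peptide described by the study as a non-canonical agonist of the EGF receptor, also for 24 h. Each group had 3 replicates, numbered 1 to 3. The question of the comparisons was which transcripts each ligand changed and how the response to the plant peptide differed from that to EGF, at doses that were not matched.

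Entry into mitosis is driven by CDK1 bound to cyclin A or cyclin B, which the CDC25 phosphatases activate and the polo and aurora kinases assist. Kinetochores then attach chromosomes to spindle microtubules, the spindle checkpoint holds back the anaphase-promoting complex until every chromosome is attached, and a central spindle and contractile ring divide the cell. The genes are transcribed mainly in late S phase, G2 and mitosis under FOXM1 and B-MYB with the MuvB core, and are held down in resting cells by the DREAM complex, so their transcripts are widely read as marks of cycling cells.

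Between 20288417 and 21320994 expected counts (reads assigned by an estimate that divides them between transcripts) were obtained per library, so that the floor of 3 counts lay at 0.141 to 0.148 CPM (counts per library size, after TMM scaling by edgeR). Every one of the 48 genes had at least 388 counts in each library and passed the filter that left 12394 genes. All 10 keratinocyte markers examined, among them KRT5, KRT14 and TP63, were present in all libraries, and their summed level was 13766 to 15051 CPM in untreated, 13363 to 14402 CPM in EGF-treated and 13624 to 15677 CPM in bleogen pB1-treated cells. Single markers moved in opposite directions within this sum, 6 of the 10 rising and 3 falling with EGF. KRT5 was at 7233 to 8103 CPM in untreated and 3471 to 3711 CPM in EGF-treated cells, KRT14 at 1433 to 1706 and 2864 to 2936 CPM, and KRT6A at 454.5 to 486 and 2125 to 2506 CPM. The part of these changes in the results was not tested. Summed markers of melanocytes (5.24 to 9.12 CPM over the 9 libraries, 1 of 5 markers at 0), fibroblasts (0.625 to 6.58 CPM, 4 of 6 markers under 1 CPM in every library), endothelium (0.25 to 1.39 CPM, 3 of 4 under 1 CPM) and immune cells (0.53 to 2.82 CPM, 1 of 5 at 0) were low. The fibroblast sum was lower with EGF (0.625 to 0.705 CPM) than in untreated cells (4.87 to 6.58 CPM), and the part of these transcripts in the results was not tested.

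Promoters of this class of genes are known for the cell cycle genes homology region (CHR), a short element read by MuvB complexes, and for CCAAT boxes, the sites of NF-Y. In a RefSeq table of 300-base promoters (250 bases before to 50 after the transcription start, GRCh38.p14) 40 of the 48 genes were found, and AURKA, BUB3, TTK, BIRC5, TPX2, RACGAP1, UBE2C and FOXM1 had no entry. The CHR letters TTTGAA were present on either strand in 27 of the 40 (67.5%), against 15.4% of all 27305 promoters, and the variant TTTAAA, which reads the same on both strands, in 14 (35.0%) against 12.3%. CCAAT was present in 30 (75.0%) against 35.7%, and a CHR of either kind together with CCAAT in 26 (65.0%) against 9.49%. The E2F letters TTCCCGC, the related letters TTGGCGC or the form with more CpG, TTCGCGC, were held by 9 (22.5%) against 11.2%. Promoters with TTTGAA were 19 of the 28 whose genes rose with EGF and 8 of the other 12. These are matches of letters and not measured binding sites, and no value of binding was taken. Shown here are the promoters of 3 genes that rose with EGF by more than 0.5 on the log2 scale (CCNB1, PLK1, CDC20), of CDK1, and of 2 genes that did not pass the test (CCNB2, TOP2A), from 200 bases before to 30 bases after the start, 5′ to 3′ on the strand of the gene, with every match of any of these letters in capitals. They lie at chr5:69166950-69167179, chr15:59104946-59105175, chr10:60778131-60778360, chr16:23678689-23678918 and chr1:43358781-43359010 on the plus strand and at chr17:40417867-40418096 on the minus strand.
CCNB1: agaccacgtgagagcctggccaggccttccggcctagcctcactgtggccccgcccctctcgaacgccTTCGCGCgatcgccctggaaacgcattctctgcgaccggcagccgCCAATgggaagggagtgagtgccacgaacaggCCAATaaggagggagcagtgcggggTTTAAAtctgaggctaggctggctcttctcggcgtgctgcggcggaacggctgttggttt
CCNB2: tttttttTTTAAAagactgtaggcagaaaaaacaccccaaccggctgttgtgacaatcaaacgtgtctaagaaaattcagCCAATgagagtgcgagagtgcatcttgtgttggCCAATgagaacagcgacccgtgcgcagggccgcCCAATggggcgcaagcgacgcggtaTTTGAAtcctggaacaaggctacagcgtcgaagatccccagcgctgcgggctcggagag
CDK1: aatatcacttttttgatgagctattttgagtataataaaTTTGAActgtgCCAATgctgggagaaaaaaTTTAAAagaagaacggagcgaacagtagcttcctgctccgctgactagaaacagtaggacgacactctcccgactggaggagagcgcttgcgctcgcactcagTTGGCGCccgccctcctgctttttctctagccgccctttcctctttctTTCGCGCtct
PLK1: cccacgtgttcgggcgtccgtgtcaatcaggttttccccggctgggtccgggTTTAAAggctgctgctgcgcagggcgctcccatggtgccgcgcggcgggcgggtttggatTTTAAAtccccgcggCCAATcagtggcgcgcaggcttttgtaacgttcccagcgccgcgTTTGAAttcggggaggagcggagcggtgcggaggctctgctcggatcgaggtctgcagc
CDC20: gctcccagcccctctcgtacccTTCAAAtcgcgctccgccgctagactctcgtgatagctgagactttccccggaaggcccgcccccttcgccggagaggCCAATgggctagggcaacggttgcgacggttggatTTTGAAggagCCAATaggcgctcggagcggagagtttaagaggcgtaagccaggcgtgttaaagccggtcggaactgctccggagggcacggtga
TOP2A: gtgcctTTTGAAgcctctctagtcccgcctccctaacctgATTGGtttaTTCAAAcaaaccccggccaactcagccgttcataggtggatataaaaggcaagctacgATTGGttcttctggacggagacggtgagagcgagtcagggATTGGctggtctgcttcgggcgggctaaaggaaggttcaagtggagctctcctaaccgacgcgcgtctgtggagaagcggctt

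A match of the CHR letters began 29 bases before the start in CCNB2 and PLK1. CCNB1 had a match of the TTTAAA form 30 bases before the start. Further TTTAAA matches began 193 bases before the start in CCNB2 and 148 and 88 bases before it in PLK1. CCNB2 carries CCAAT boxes 54, 87 and 120 bases before the start. In CDC20 the nearer TTTGAA began 65 bases before the start. In TOP2A the matches of TTTGAA lay farther away, 194 and 151 bases before the start, and all of its CCAAT boxes read on the opposite strand. In CDK1, which rose with EGF, TTTGAA began 161 bases and TTTAAA 131 bases before the start. A link between distance and response was not tested.

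Both ligands went with higher transcript levels of these genes. Summed over the 48 genes, the level was 7538, 7552 and 8076 CPM in untreated cells, 10424, 9310 and 9681 CPM with EGF, and 8431, 10218 and 9347 CPM with bleogen pB1. The groups did not overlap with either ligand, and the means were 7722 ± 306.8 (SD, n = 3), 9805 ± 567.3 and 9332 ± 893.3 CPM, 1.27 times the untreated level with EGF and 1.21 times with bleogen pB1. In bulk RNA, more cells in G2 and mitosis cannot be told apart from more of each transcript per cell. No statement of separate cultures was found for the replicates, so the p-values measure the spread between these libraries only, which may be technical.

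With EGF, 35 of the 48 genes (72.9%) rose at an adjusted p of at most 0.05 by the quasi-likelihood test of edgeR with Benjamini-Hochberg adjustment over all genes tested, against 32.4% of all genes. CENPF alone fell (2.08% of the 48, against 33.6% of all genes). At the stricter definition of a DEG, an adjusted p of at most 0.05 with an absolute log2 fold change of at least 0.5, 18 genes (37.5%) were up against 15.1% of all genes, and 0 were down against 21.8%. DESeq2 gave 0 DEGs down as well, and at an unadjusted p under 0.05 in edgeR 1 of the 48 was lower, against 35.2% of all genes. Of the 18 DEGs up, 13 were kept whichever of the 6 libraries was left out. CCNB1, PLK1, BUB1B, SPC25 and MYBL2 were not kept in every such fit. In 36 of the 48 all EGF libraries lay above all untreated ones (34.5% of all genes), and in 2, CDC25C and NUSAP1, below them (35.9%). The median log2 fold change over the 48 was 0.38, from -0.23 to 0.91, with a median SE of 0.08, beside a median of -0.01 over all genes.

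With bleogen pB1 fewer of the genes passed the test, and the library medians and sums overlapped those with EGF. No gene of the 48 was a DEG, and the same count of 0 was given by DESeq2. Of all genes 0.218% were up and 1.26% down, shares at which any 48 genes would give few or none. At an adjusted p of at most 0.05 alone, 14 genes (29.2%) rose, against 1.56% of all genes, and 0 fell, against 2.55%. At an unadjusted p under 0.05, 42 of the 48 were higher (11.7% of all genes) and 0 lower (10.5%). In 34 of the 48 every treated library lay above every untreated one (14.4% of all genes), and in 0 below (14.7%). All 48 fold changes were above 0, as were 49.7% of all genes, with a median of 0.30 and a range of 0.01 to 0.45. The median SE with bleogen pB1 was 0.08. It includes shifts that the genes share from library to library and does not measure the spread between genes. The SD of the fold changes over the 48 genes was 0.09 on the log2 scale, and it was 0.30 with EGF. Over all genes these SDs were 0.27 with bleogen pB1 and 0.90 with EGF.

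The count of 14 depended on single libraries. It was 36 without bleogen pB1 replicate 1, 3 without untreated replicate 3, and 2 without untreated replicate 1 or 2 or without bleogen pB1 replicate 2 or 3. DESeq2 gave 31. CDC25B and MYBL2 passed in all 6 of the fits without a single library, and without bleogen pB1 replicate 1, 4 genes were DEGs. The calls over all genes moved between these fits too. By the stricter definition of a DEG, the genes up over all genes were 27 with every library and 100 without bleogen pB1 replicate 1. They were 13 to 18 without any other single library. The share of all genes at the adjusted p alone in these fits, or by DESeq2, is not given here. The counts of 36, 31, 3 and 2 therefore stand without a share of all genes beside them. Within its group bleogen pB1 replicate 1 was the lowest library for 47 of the 48 genes, which held for 38.3% of all genes, and replicate 2 the highest for 46 (39.0% of all genes). The order of replicate 2 above 3 above 1 was found for 45 of the 48 and for 27.9% of all genes. The 48 genes thus shifted together from library to library and are not independent of each other.

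Seen by library, the median over the 48 genes of the log2 CPM, relative to the untreated mean, was -0.05, -0.02 and 0.07 in untreated replicates 1 to 3, 0.50, 0.30 and 0.37 with EGF, and 0.14, 0.45 and 0.29 with bleogen pB1. EGF replicates 1 to 3 had 42, 36 and 38 of the 48 genes above every untreated library, beside 42.1%, 43.4% and 42.5% of all genes. The corresponding numbers with bleogen pB1 were 35, 48 and 46 genes, beside 29.2%, 36.5% and 32.5% of all genes. The bleogen pB1 library with the weakest shift still had most of the genes above all untreated libraries.

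**Figure D1:**
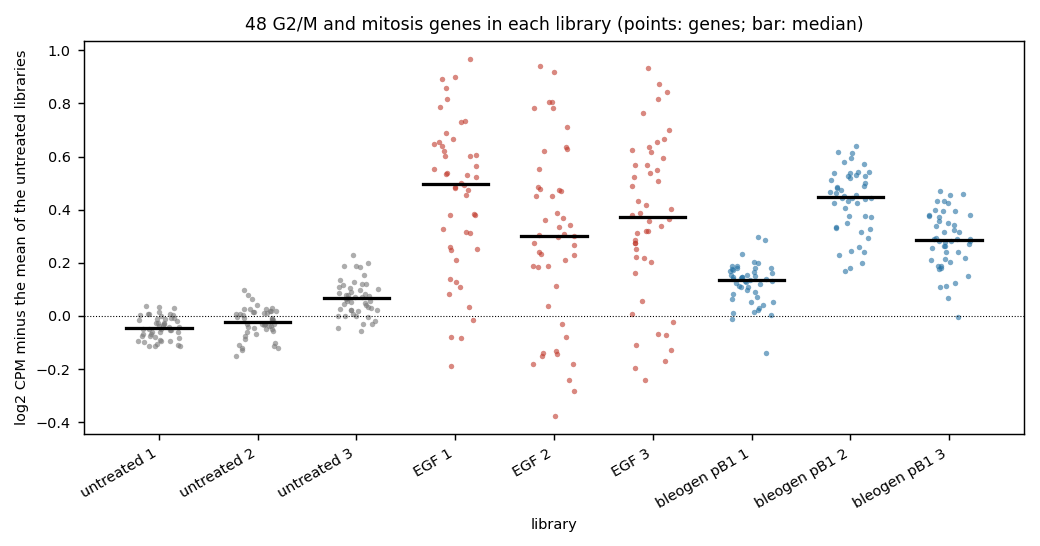
Log2 CPM of each of the 48 genes minus its mean over the untreated libraries (y axis), in each of the 9 libraries (x axis); points are genes and bars are medians. The medians lie at -0.05 to 0.07 in untreated, 0.30 to 0.50 in EGF-treated and 0.14 to 0.45 in bleogen pB1-treated libraries, and the points spread more widely with EGF than with bleogen pB1.

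By role, each fold change is given on the log2 scale against untreated cells, with its standard error (SE). The counts of rises by role are to be read beside all genes, of which 32.4% rose with EGF and 1.56% with bleogen pB1. The role groups are small, and differences between them were not tested. Of the 14 rises with bleogen pB1, only those of CDC25B and MYBL2 were kept whichever library was left out. Of the 8 genes of mitotic entry, 5 rose with EGF, with a median log2 fold change of 0.30, and 2 rose with bleogen pB1, with a median of 0.35. PLK1, the polo kinase that promotes CDK1 activation and spindle assembly, was at 160.4, 154 and 167 CPM in untreated, 291, 209.5 and 242 CPM in EGF-treated and 176, 233 and 217 CPM in bleogen pB1-treated cells. Every EGF library lay above the untreated ones, and PLK1 rose by 0.63 (SE 0.11, edgeR adjusted p = 0.000357) with EGF, the most of this group, while the value with bleogen pB1 was 0.38 (SE 0.11, edgeR adjusted p = 0.0815). CCNB1, cyclin B1, was at 187, 197 and 200.1 CPM in untreated, 281, 266 and 284 CPM in EGF-treated and 217, 280.0 and 247 CPM in bleogen pB1-treated cells. Both treated groups lay above the untreated cells, and CCNB1 rose by 0.51 (SE 0.08, edgeR adjusted p = 0.000103) with EGF and by 0.35 (SE 0.08, edgeR adjusted p = 0.0318) with bleogen pB1. CDK1, the kinase that cyclin B activates, was at 74.9, 80.3 and 87.9 CPM in untreated, 112, 93.6 and 120.1 CPM in EGF-treated and 87.9, 117 and 103 CPM in bleogen pB1-treated cells. All EGF libraries lay above the untreated ones, the lowest bleogen pB1 library met the highest untreated library to the digits given, and CDK1 rose by 0.42 (SE 0.11, edgeR adjusted p = 0.00409) with EGF against 0.34 (SE 0.11, edgeR adjusted p = 0.091) with bleogen pB1.

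The CDC25 phosphatases of this group, which remove the inhibitory phosphates from CDK1, differed. CDC25B was at 316, 320.4 and 309 CPM in untreated, 409.6, 358 and 367 CPM in EGF-treated and 387, 441 and 423 CPM in bleogen pB1-treated cells. The treated groups both lay above the untreated cells, and CDC25B rose by 0.26 (SE 0.07, edgeR adjusted p = 0.00353) with EGF and by 0.40 (SE 0.07, edgeR adjusted p = 0.00465) with bleogen pB1. CDC25C was at 22.2, 23.5 and 24.6 CPM in untreated, 20.5, 21.1 and 20.5 CPM in EGF-treated and 23.5, 27.5 and 25.5 CPM in bleogen pB1-treated cells. The EGF libraries lay below all untreated libraries without passing the test, at -0.18 (SE 0.08, edgeR adjusted p = 0.0735), and the bleogen pB1 value was 0.12 (SE 0.08, edgeR adjusted p = 0.418). CCNA2, cyclin A2, rose by 0.34 (SE 0.10, edgeR adjusted p = 0.00918) with EGF. CCNB2, cyclin B2, had 0.07 (adjusted p = 0.349) with EGF and 0.22 (adjusted p = 0.0788) with bleogen pB1 in edgeR, and NEK2, a centrosomal kinase, had -0.13 (adjusted p = 0.167) and 0.21 (adjusted p = 0.155). The CCNB2 value with EGF turned to -0.03 under upper-quartile scaling. Exons of 10 of the 48 genes (CCNA2, CDC25C, PLK1, BUB1B, CENPA, KIF20A, KIF4A, RACGAP1, NUSAP1 and FOXM1) overlap those of another listed gene, and their counts are less certain. For BUB1B and CENPA the overlapping genes lie on the same strand, so use of the strand cannot separate them. For the rest the overlap is with the opposite strand, and use of the strand in counting was not stated.

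The chromosomal passenger complex corrects faulty attachments at centromeres and later marks the site of division. Of its 4 genes 3 rose with EGF (median 0.40) and 2 with bleogen pB1 (median 0.32). AURKB, its kinase, was at 85.0, 82.7 and 85.6 CPM in untreated, 133, 138 and 133 CPM in EGF-treated and 93.5, 109.6 and 98.0 CPM in bleogen pB1-treated cells. The 3 groups were ordered untreated, bleogen pB1, EGF without overlap, and AURKB rose by 0.68 (SE 0.06, edgeR adjusted p = 1.52e-06) with EGF and by 0.25 (SE 0.06, edgeR adjusted p = 0.0489) with bleogen pB1. INCENP, the scaffold of the complex, was at 84.1, 77.2 and 84.8 CPM in untreated, 116, 112 and 107 CPM in EGF-treated and 91.8, 113 and 108 CPM in bleogen pB1-treated cells. Both treated groups lay above the untreated cells, with rises of 0.45 (SE 0.08, edgeR adjusted p = 0.000214) and 0.34 (SE 0.08, edgeR adjusted p = 0.028). BIRC5, survivin, was at 70.1, 80.3 and 77.7 CPM in untreated, 112, 69.0 and 91.9 CPM in EGF-treated and 86.0, 103 and 91.7 CPM in bleogen pB1-treated cells, with the widest scatter of the complex in the EGF group. EGF replicate 2 lay below every untreated library and EGF replicates 1 and 3 above, and neither ligand passed the test, at 0.26 (SE 0.14, edgeR adjusted p = 0.108) and 0.30 (SE 0.14, edgeR adjusted p = 0.212). CDCA8, borealin, rose by 0.36 (SE 0.09, edgeR adjusted p = 0.00342) with EGF, and its value with bleogen pB1 was 0.35 (adjusted p = 0.0503).

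Of the 9 spindle checkpoint and anaphase genes, 8 rose with EGF, with a median of 0.46, and 2 rose with bleogen pB1, with a median of 0.27. CDC20, the activator of the anaphase-promoting complex on which the checkpoint acts, was at 212, 219 and 217 CPM in untreated, 373, 372 and 366 CPM in EGF-treated and 236, 312 and 258 CPM in bleogen pB1-treated cells. The EGF libraries agreed closely and lay far above the rest, with a rise of 0.78 (SE 0.08, edgeR adjusted p = 4.01e-06), while the bleogen pB1 value of 0.32 (SE 0.08, edgeR adjusted p = 0.0503) just missed the threshold. UBE2C, the ubiquitin-conjugating enzyme of that complex, rose by 0.69 (SE 0.08, edgeR adjusted p = 5.93e-06). BUB1 and BUB1B, checkpoint kinase and BUBR1, rose by 0.61 and 0.51 with EGF (edgeR adjusted p = 0.00017 and 0.000501) and by 0.43 and 0.44 with bleogen pB1 (0.0363 and 0.0274). MAD2L1, the checkpoint effector MAD2, the kinase TTK, and PTTG1, securin, rose with EGF by 0.46, 0.33 and 0.38.

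BUB3, which brings the BUB proteins to kinetochores, was at 169.8, 171 and 170.5 CPM in untreated, 203, 211 and 216 CPM in EGF-treated and 172, 196 and 179 CPM in bleogen pB1-treated cells. The EGF libraries lay above all others, and BUB3 rose by 0.30 (SE 0.06, edgeR adjusted p = 0.000553), with 0.10 (SE 0.06, edgeR adjusted p = 0.354) for bleogen pB1. The deposited mean transcript length of BUB3 changed by -9.04% with EGF and by -3.25% with bleogen pB1, where the other 47 genes moved by at most 0.876% and 1.01%, and its part in the BUB3 count was not tested. ESPL1, separase, the protease that cuts cohesin at anaphase, was at 65.7, 64.9 and 71.1 CPM in untreated, 80.1, 55.3 and 64.2 CPM in EGF-treated and 74.4, 80.4 and 81.7 CPM in bleogen pB1-treated cells. EGF replicates lay on either side of the untreated libraries, and ESPL1 passed neither test, at -0.02 (SE 0.11, edgeR adjusted p = 0.898) with EGF and 0.23 (SE 0.11, edgeR adjusted p = 0.226) with bleogen pB1.

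At the centromere and kinetochore, 4 of 6 genes rose with EGF and 1 fell (median 0.44), and 1 rose with bleogen pB1 (median 0.30). NUF2, a subunit of the NDC80 complex that holds microtubules, was at 35.5, 35.1 and 42.8 CPM in untreated, 70.0, 64.8 and 67.7 CPM in EGF-treated and 39.6, 53.3 and 45.2 CPM in bleogen pB1-treated cells. Every EGF library exceeded all other libraries, with a rise of 0.84 (SE 0.11, edgeR adjusted p = 1.66e-05), and the bleogen pB1 libraries overlapped the untreated ones at 0.28 (SE 0.11, edgeR adjusted p = 0.137). The partners NDC80 and SPC25 rose with EGF by 0.37 and 0.51, and NDC80 by 0.32 (SE 0.08, edgeR adjusted p = 0.039) with bleogen pB1. CENPE, the kinetochore motor that moves chromosomes to the spindle equator, was at 64.0, 63.6 and 81.1 CPM in untreated, 122, 108 and 112 CPM in EGF-treated and 78.2, 108 and 93.4 CPM in bleogen pB1-treated cells. It rose by 0.71 (SE 0.12, edgeR adjusted p = 0.000136) with EGF, and bleogen pB1 replicate 1 lay within the untreated range at a group value of 0.42 (SE 0.12, edgeR adjusted p = 0.059).

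CENPF, a large protein of the outer kinetochore, went the other way with EGF. It was at 334, 310.4 and 378 CPM in untreated, 321, 262 and 287 CPM in EGF-treated and 363, 384 and 385 CPM in bleogen pB1-treated cells. EGF replicate 1 lay within the untreated range, and CENPF fell by 0.23 in log2 units (SE 0.08, edgeR adjusted p = 0.0257), where bleogen pB1 gave 0.15 (SE 0.08, edgeR adjusted p = 0.321). The EGF call was lost without untreated replicate 3, EGF replicate 2 or EGF replicate 3, with log2 fold changes of -0.15, -0.16 and -0.22. CENPA, the histone variant of centromeres, had 0.18 (adjusted p = 0.113) with EGF and 0.01 (adjusted p = 0.95) with bleogen pB1 in edgeR, and the sign of the latter turned under upper-quartile scaling (-0.0035).

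**Figure D2:**
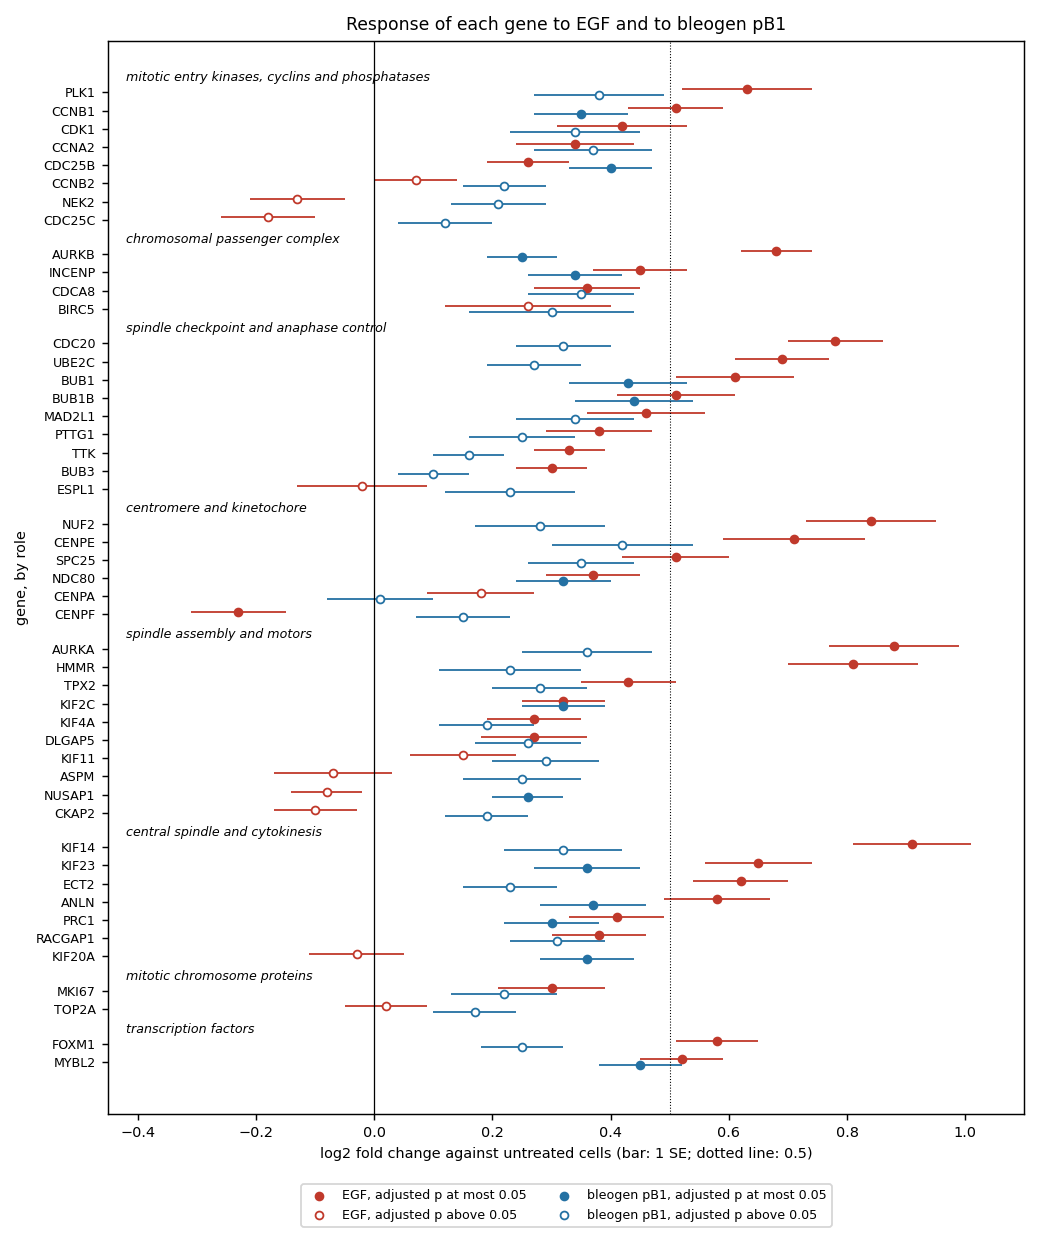
Log2 fold change against untreated cells (x axis) of the 48 genes (y axis, grouped by role) with EGF and with bleogen pB1; bars are 1 SE, filled points have an adjusted p of at most 0.05 by edgeR and the dotted line marks 0.5. EGF values run from -0.23 for CENPF to 0.91 for KIF14, and bleogen pB1 values from 0.01 for CENPA to 0.45 for MYBL2.

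Among the 10 genes of spindle assembly, 6 rose with EGF and the median was 0.27, and 2 rose with bleogen pB1, with a median of 0.26. AURKA, the aurora kinase of centrosomes, was at 101, 107 and 116 CPM in untreated, 211, 189 and 198 CPM in EGF-treated and 111, 163 and 141 CPM in bleogen pB1-treated cells. The EGF libraries stood above all others, while bleogen pB1 replicate 1 lay within the untreated range. AURKA rose by 0.88 (SE 0.11, edgeR adjusted p = 1.57e-05) with EGF, the largest rise of the group, with 0.36 (SE 0.11, edgeR adjusted p = 0.086) for bleogen pB1. TPX2, which activates AURKA on the spindle, was at 351, 349.6 and 372 CPM in untreated, 524, 441 and 478 CPM in EGF-treated and 387, 482 and 437 CPM in bleogen pB1-treated cells. Both treated groups lay above the untreated cells, and TPX2 rose by 0.43 (SE 0.08, edgeR adjusted p = 0.000533) with EGF, where bleogen pB1 gave 0.28 (SE 0.08, edgeR adjusted p = 0.0708) and did not pass.

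HMMR, a microtubule-binding partner of TPX2, rose by 0.81 (SE 0.11, edgeR adjusted p = 4.71e-05) with EGF. The kinesins KIF2C, which depolymerizes microtubules, and KIF4A, a motor of chromosome arms, rose by 0.32 and 0.27, and DLGAP5, a stabilizer of kinetochore fibres, by 0.27 (edgeR adjusted p = 0.0184, a call lost without untreated replicate 1 at 0.22). With bleogen pB1, KIF2C and NUSAP1 rose by 0.32 and 0.26. The other 4 did not pass with EGF. CKAP2, a microtubule-associated protein, was at 241, 228 and 246 CPM in untreated, 244, 210.4 and 212 CPM in EGF-treated and 264, 282 and 269 CPM in bleogen pB1-treated cells. EGF and untreated libraries overlapped at -0.10 (SE 0.07, edgeR adjusted p = 0.188), the lowest value of the group, and bleogen pB1 libraries all lay above the untreated ones at 0.19 (SE 0.07, edgeR adjusted p = 0.114). For ASPM, NUSAP1 and KIF11, proteins of spindle poles, spindle fibres and the bipolar spindle, EGF values were -0.07, -0.08 and 0.15.

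The 7 genes of the central spindle and cytokinesis had the highest median with EGF, 0.58, and 6 of them rose. With bleogen pB1 4 of 7 rose, with a median of 0.32. KIF14, a kinesin of the midbody, was at 93.0, 90.8 and 112 CPM in untreated, 183, 186 and 187 CPM in EGF-treated and 103, 142 and 124 CPM in bleogen pB1-treated cells. Its EGF libraries lay within a few CPM of each other and above all others, and the rise of 0.91 (SE 0.10, edgeR adjusted p = 7.49e-06) was the largest of the 48 genes, where bleogen pB1 gave 0.32 (SE 0.10, edgeR adjusted p = 0.0997). ANLN, anillin, which ties actin and septins to the contractile ring, was at 445, 427 and 482 CPM in untreated, 727, 631 and 668 CPM in EGF-treated and 508, 657 and 586 CPM in bleogen pB1-treated cells. Both treated groups stood above the untreated cells, with rises of 0.58 (SE 0.09, edgeR adjusted p = 8.49e-05) and 0.37 (SE 0.09, edgeR adjusted p = 0.0383). PRC1, the bundler of the central spindle, was at 185, 188 and 203 CPM in untreated, 269, 248 and 247 CPM in EGF-treated and 209, 263 and 239 CPM in bleogen pB1-treated cells, and it rose by 0.41 (SE 0.08, edgeR adjusted p = 0.000518) with EGF and 0.30 (SE 0.08, edgeR adjusted p = 0.0495) with bleogen pB1.

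KIF23 and RACGAP1, the motor and the GTPase-activating protein of centralspindlin, rose by 0.65 and 0.38 with EGF, and ECT2, the exchange factor that centralspindlin recruits, by 0.62. KIF20A, the kinesin that carries the passenger complex to the central spindle, was at 151, 157 and 163 CPM in untreated, 166, 142 and 154 CPM in EGF-treated and 178, 220.2 and 207 CPM in bleogen pB1-treated cells. The EGF libraries straddled the untreated ones at -0.03 (SE 0.08, edgeR adjusted p = 0.787), while all bleogen pB1 libraries lay above them and KIF20A rose by 0.36 (SE 0.08, edgeR adjusted p = 0.0278). Exons of KIF20A overlap those of BRD8 and CDC23.

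Of the mitotic chromosome proteins MKI67, the Ki-67 antigen that coats mitotic chromosomes, was at 452, 407 and 469.5 CPM in untreated, 618, 503 and 515 CPM in EGF-treated and 452, 551 and 542 CPM in bleogen pB1-treated cells. EGF libraries all lay above the untreated cells and bleogen pB1 replicate 1 lay within the untreated range. MKI67 rose by 0.30 (SE 0.09, edgeR adjusted p = 0.013) with EGF, a call that was lost without untreated replicate 2 (0.24) or EGF replicate 1 (0.20), and had 0.22 (SE 0.09, edgeR adjusted p = 0.2) with bleogen pB1. TOP2A, the topoisomerase that untangles sister chromatids, had the highest FPKM of the 48 genes in untreated cells (177) and was at 950.0, 985 and 1051 CPM in untreated, 1097, 941 and 1000.0 CPM in EGF-treated and 1073, 1179 and 1104 CPM in bleogen pB1-treated cells. EGF and untreated libraries overlapped, at 0.02 (SE 0.07, edgeR adjusted p = 0.772) with EGF, a value that turned to -0.08 under upper-quartile scaling and -0.03 without scaling, and the bleogen pB1 libraries lay above the untreated ones at 0.17 (SE 0.07, edgeR adjusted p = 0.177).

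Both transcription factors that activate this gene class rose with EGF. FOXM1 was at 337, 333 and 334 CPM in untreated, 508, 517 and 477 CPM in EGF-treated and 357, 435 and 402 CPM in bleogen pB1-treated cells. The untreated libraries differed by a few CPM only, the EGF libraries lay above all others, and FOXM1 rose by 0.58 (SE 0.07, edgeR adjusted p = 1.11e-05) with EGF against 0.25 (SE 0.07, edgeR adjusted p = 0.0629) with bleogen pB1. MYBL2, B-MYB, was at 98.3, 97.2 and 93.1 CPM in untreated, 146, 133 and 135 CPM in EGF-treated and 117, 144 and 132 CPM in bleogen pB1-treated cells. Both treated groups lay above the untreated cells, and MYBL2 rose by 0.52 (SE 0.07, edgeR adjusted p = 4.08e-05) with EGF and by 0.45 (SE 0.07, edgeR adjusted p = 0.00465) with bleogen pB1, the largest bleogen pB1 value of the 48.

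**Figure D3:**
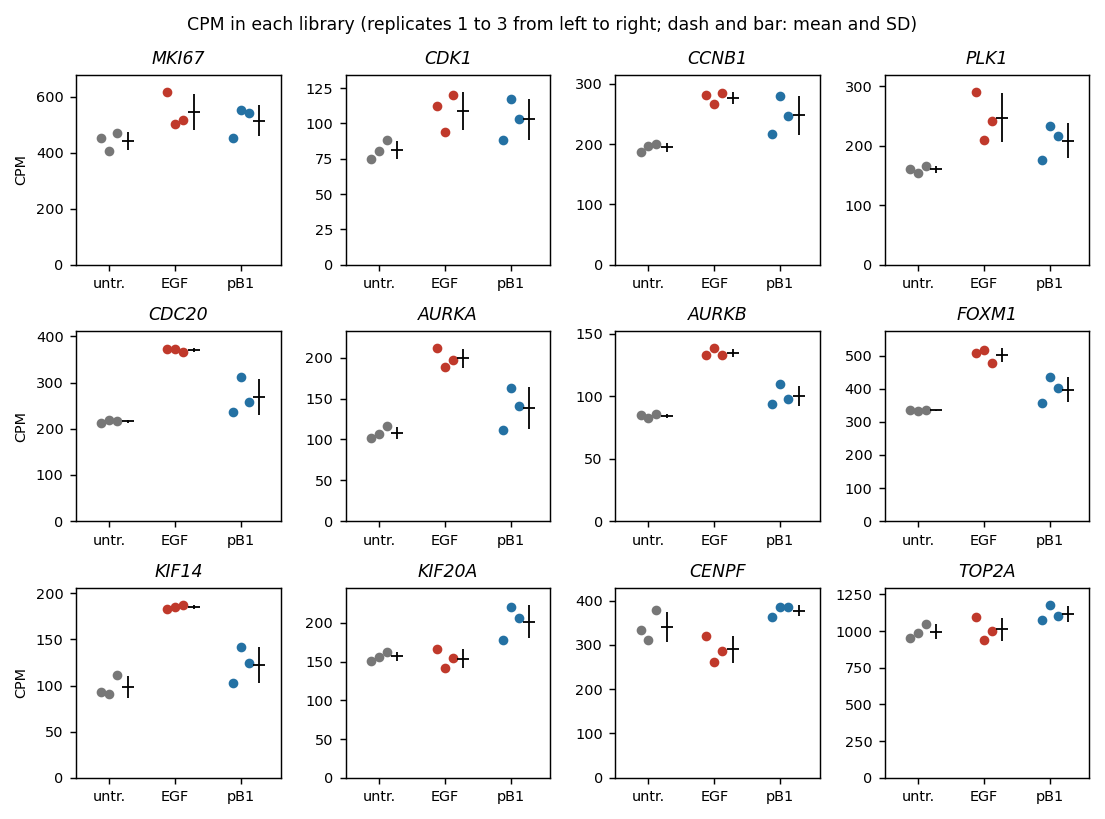
CPM (y axis, from 0) of 12 of the genes in each library of the 3 groups (x axis; untr., untreated); points are replicates 1 to 3, and the dash and bar are the mean and SD. CDC20, AURKB, FOXM1 and KIF14 show EGF libraries above all others, KIF20A and CENPF show bleogen pB1 libraries above all EGF libraries, and replicate 1 is the lowest bleogen pB1 library in each of the 12 panels.

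Levels per length also differed widely between the genes. Mean FPKM (counts scaled for gene length and depth) in untreated cells ran from 8.48 for CENPE to 177 for TOP2A, with UBE2C at 169, CDC20 at 134, PTTG1 at 121 and CDC25B at 106.

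Compared directly, EGF-treated and bleogen pB1-treated cells differed in both directions for these genes. The doses were 10 nM and 1 µM, so the comparison is of these treatments and not of the ligands at equal dose. At an adjusted p of at most 0.05 by edgeR, 13 of the 48 (27.1%) were higher with EGF, against 28.5% of all genes, and 7 (14.6%) were lower, against 29.7%. The share that was higher is near that of all genes, and the median log2 difference was 0.09, from -0.39 to 0.59, beside -0.01 over all genes. The 4 DEGs, all higher with EGF (8.33%, against 10.8% of all genes), were KIF14 at 0.59 (SE 0.10, edgeR adjusted p = 0.000329), HMMR at 0.57 (SE 0.11, edgeR adjusted p = 0.000904), NUF2 at 0.55 (SE 0.10, edgeR adjusted p = 0.000597) and AURKA at 0.53 (SE 0.11, edgeR adjusted p = 0.00119). None of the 7 lower genes was a DEG, where 18.0% of all genes were, and DESeq2 gave 0 as well (9 of the 48 were lower at an unadjusted p under 0.05, with 31.9% of all genes). The count of 4 was 0 without bleogen pB1 replicate 1 and 7 without bleogen pB1 replicate 2.

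The other genes that were higher with EGF were CDC20 (0.46), UBE2C (0.43), AURKB (0.43), ECT2 (0.39), FOXM1 (0.33), KIF23 (0.29), CENPE (0.29), BUB3 (0.20) and TTK (0.18). CDC20, for example, had an SE of 0.08 and an edgeR adjusted p of 0.000376, and its groups did not overlap. Lower with EGF were KIF20A at -0.39 (SE 0.08, edgeR adjusted p = 0.00117), CENPF at -0.38 (SE 0.08, edgeR adjusted p = 0.00177) and NUSAP1 at -0.35 (SE 0.06, edgeR adjusted p = 0.000253), then NEK2 (-0.34), ASPM (-0.32), CDC25C (-0.30) and CKAP2 (-0.29). Each of the 7 had all EGF libraries below all bleogen pB1 libraries, a separation seen downward in 8 of the 48 and in 31.7% of all genes, and upward in 12 and in 30.7%. Of the 20 calls, 16 were kept whichever of the 6 libraries was left out, and those of CENPE, TTK, KIF23 and ASPM were not. Without bleogen pB1 replicate 1 the differences of CENPE, TTK and KIF23 were 0.18, 0.13 and 0.21, and without EGF replicate 2 that of ASPM was -0.22. CENPE was also lost without EGF replicate 1 or 3 or bleogen pB1 replicate 3 (0.24, 0.31 and 0.30), TTK without EGF replicate 2 or 3 or bleogen pB1 replicate 3 (0.17, 0.19 and 0.16), and ASPM without bleogen pB1 replicate 3 (-0.29).

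In the direct comparison, 4 of 9 checkpoint and anaphase genes were higher with EGF and none lower by edgeR, and 3 of 7 cytokinesis genes were higher and 1 lower. Of the 8 entry genes 0 were higher and 2 lower, and of the 10 spindle genes 2 were higher and 3 lower. With 28.5% of all genes higher and 29.7% lower, these counts are small and differences between the roles were not tested. The remaining 28 genes did not pass, which does not show that the ligands acted alike on them.

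**Figure D4:**
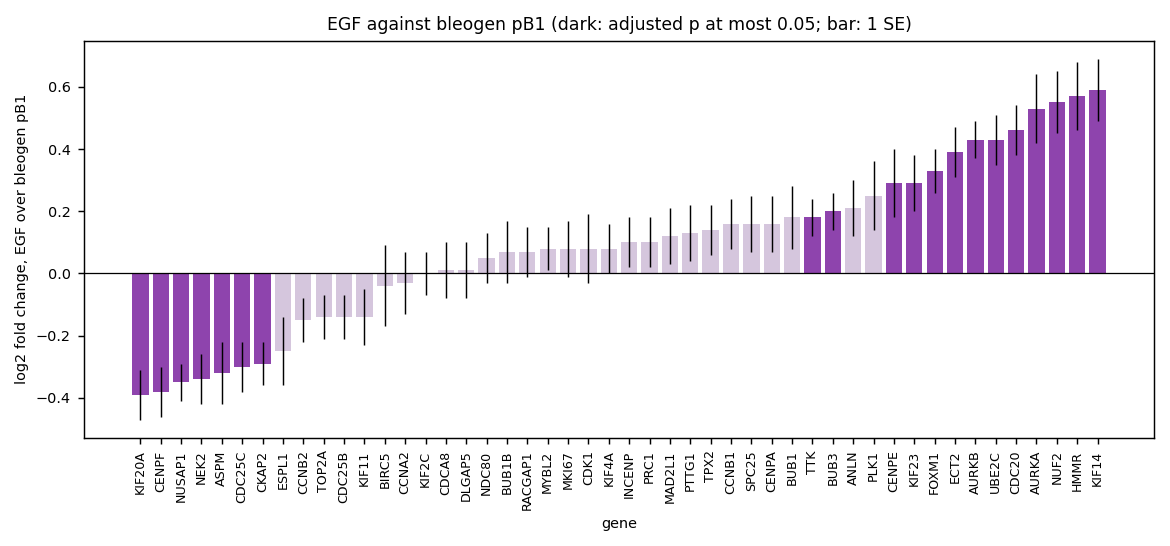
Log2 difference of EGF over bleogen pB1 (y axis) for the 48 genes in order of size (x axis); lines are 1 SE and dark bars have an adjusted p of at most 0.05 by edgeR. The bars run from -0.39 for KIF20A to 0.59 for KIF14, with 13 dark bars above 0 and 7 below.

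The other genes of the same pathways were counted in lists by function, to be read beside all genes, of which 32.4% rose and 33.6% fell with EGF and 1.56% rose with bleogen pB1. Of 31 other centromere and kinetochore genes, 19 rose with EGF and 3 fell, led by SKA1 (1.17, edgeR adjusted p = 1.05e-05) and SKA3 (0.99, edgeR adjusted p = 1.14e-06), subunits of the complex that couples kinetochores to microtubule ends, and 5 rose with bleogen pB1. Of 19 condensin and cohesion genes, 12 rose with EGF, led by CDCA5 (0.84, edgeR adjusted p = 1.2e-06), sororin, and SGO2 (0.66, edgeR adjusted p = 0.000125), a protector of centromeric cohesin, and 2 rose with bleogen pB1. Of 17 subunits and regulators of the anaphase-promoting complex, 8 rose and 1 fell with EGF, and 1 rose with bleogen pB1. UBE2S, the enzyme that extends ubiquitin chains on its substrates, went from 107 ± 4.2 to 227 ± 7.54 CPM with EGF (SD, n = 3; 1.09, SE 0.09, edgeR adjusted p = 3.24e-07), and CDC26, a small subunit, rose by 0.55. These lists had medians of 0.40, 0.30 and 0.18 with EGF and 0.24, 0.22 and 0.07 with bleogen pB1, beside -0.01 and -0.001 over all genes.

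Of 12 DREAM and MuvB genes, regulators of this gene class, 6 rose and 4 fell with EGF, and the share that fell is near that of all genes (32.4% of all genes rose and 33.6% fell). With bleogen pB1, where 1.56% of all genes rose and 2.55% fell, 0 of the 12 passed in edgeR in either direction, as these shares would also give. At an unadjusted p under 0.05 in edgeR 3 were higher, where 11.7% of all genes were higher and 10.5% lower. By DESeq2 1 was higher, and the share of all genes by DESeq2 is not given here. MYBL1 (1.27, edgeR adjusted p = 8.63e-06), A-MYB, and E2F5 (0.98, edgeR adjusted p = 4.39e-06), a repressive E2F, rose most, and RBL2 (-1.32, edgeR adjusted p = 1.78e-06), the p130 pocket protein of DREAM, and TFDP2 (-0.58, edgeR adjusted p = 2.86e-05), a dimer partner of E2F, fell most. RBL2 was at 108 ± 2.57 CPM in untreated, 43.1 ± 8.83 CPM in EGF-treated and 93.3 ± 13.1 CPM in bleogen pB1-treated cells. Of 8 brakes on mitotic entry 5 rose and 3 fell with EGF, the falls again near the share of all genes. With bleogen pB1 0 of the 8 passed in edgeR, as the shares of all genes would also give. At an unadjusted p under 0.05 in edgeR 2 were higher and 2 lower, beside 11.7% and 10.5% of all genes. By DESeq2 1 was higher and 1 lower, again without a share of all genes. CDKN1A, the CDK inhibitor p21, was at 74.1 ± 2.35 CPM in untreated, 211 ± 55.8 CPM in EGF-treated and 55.1 ± 3.8 CPM in bleogen pB1-treated cells, and rose by 1.51 (SE 0.14, edgeR adjusted p = 1.49e-06) with EGF, where bleogen pB1 gave -0.43 (SE 0.14, edgeR adjusted p = 0.106). GADD45A, a stress-induced inhibitor of CDK1, rose by 0.96 (SE 0.11, edgeR adjusted p = 8.6e-06) with EGF. A rise of p21 transcripts stood beside the rise of most mitotic genes with EGF.

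Genes of DNA replication and S phase, the preceding step of the cycle, were counted in the same way, beside the same shares of all genes. Of 42, 26 rose with EGF and 4 fell, with a median of 0.28. With bleogen pB1 15 rose, with a median of 0.27 and all 42 values above 0. By DESeq2 24 rose, for which no share of all genes is given here. RRM2, the regulated subunit of ribonucleotide reductase, rose by 0.92 (SE 0.10, edgeR adjusted p = 6.67e-06) with EGF and by 0.44 (SE 0.10, edgeR adjusted p = 0.0355) with bleogen pB1. CCNE1, cyclin E1, rose by 1.15 (SE 0.20, edgeR adjusted p = 0.000202) with EGF from a low level of 2.48 ± 0.147 CPM. E2F2, an activating E2F, fell by 0.85 on the log2 scale with EGF (SE 0.17, edgeR adjusted p = 0.000544) and had 0.43 (SE 0.15, edgeR adjusted p = 0.122) with bleogen pB1. By library the medians of this list were 0.31, 0.28 and 0.29 with EGF and 0.15, 0.38 and 0.28 with bleogen pB1, so the order of the bleogen pB1 replicates was that of the mitotic genes.

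**Figure D5:**
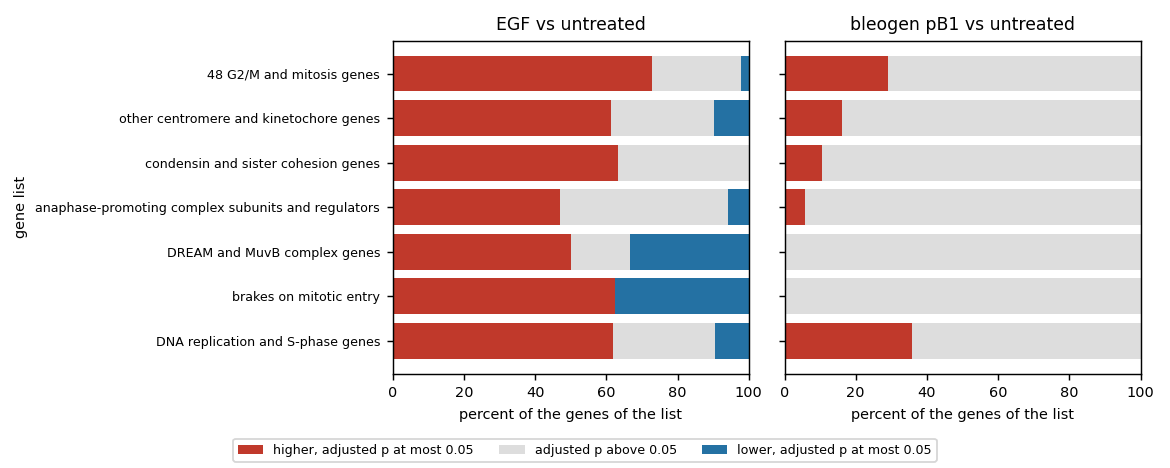
Percent of the genes of each list (x axis) with an adjusted p of at most 0.05 by edgeR and higher or lower than in untreated cells, for EGF and bleogen pB1; lists are on the y axis. With EGF 72.9% of the 48 genes rose and 2.08% fell, beside 32.4% and 33.6% of all genes. With bleogen pB1 29.2% rose and 0 genes fell, beside 1.56% and 2.55% of all genes. Neither DREAM and MuvB genes nor brakes passed with bleogen pB1, as those shares would also give in lists this small.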

How the data were processed

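RNA from 9 HaCaT libraries was analysed as deposited, with groups taken from the sample titles. Libraries of polyadenylated RNA were made with dUTP in the second strand, per the labels. The authors had the reads mapped to GRCh38.p12; the counting program and its use of strand are not given in the sources used here. The authors deposited expected counts, which are unscaled estimates per gene, and FPKM, scaled for gene length and depth. The deposited gene length is a mean over transcripts. A gene missing from a library counted as 0.

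Rounded expected counts were compared by edgeR 4.0.16 under R 4.3.3 (filterByExpr, 12394 genes; TMM factors of 0.9636 to 1.024; glmQLFit and glmQLFTest on all 9 libraries, 6 residual degrees of freedom; Benjamini-Hochberg adjustment over all genes tested). "Rose" and "fell" denote an adjusted p of at most 0.05, and DEGs in addition an absolute log2 fold change of at least 0.5. A single gene compared over 3 against 3 libraries by an exact permutation test cannot reach a p under 0.1. Alternatives were DESeq2 1.42.0, limma 3.58.1 on log2(FPKM + 1) or log2(FPKM + 0.1), other scalings, filters and fold limits, glmTreat, the 6 libraries compared alone, each replicate left out and a replicate block. The scripts were tested on simulated data. Exon overlaps are from GENCODE 44 and promoters from RefSeq (GRCh38.p14). Depth was 20288417 to 21320994 counts per library, and the floor of 3 counts covers counting error only. The members and lists were chosen with earlier results of these data known. In each role group, values by library are given for the 2 genes with the highest mean CPM, those with the highest and lowest EGF fold change, and 10 well-known genes, and other lists are represented by up to 2 rises and 2 falls with the largest fold change among DEGs. Of the genes that meet this rule, 1 is not reported here.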

Additional observations from a re-analysis of the deposited data

How the results depend on the processing

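The medians of the 48 genes against untreated cells, the count of 35 rises with EGF (31 to 37) and the count of 0 falls with bleogen pB1 stayed in direction and within 1.5 times under every alternative run. The median of EGF over bleogen pB1 (0.09) was 0.01 with upper-quartile factors, 0.02 without scaling and by each limma fit, and 0.01 to 0.18 without single replicates. Upper-quartile scaling moved the median of all genes with EGF by -0.104, to -0.118. The median of the 48 was then 0.27, which is 0.39 above all genes, as under the other scalings. The EGF DEGs among the 48 (18 up) were 7 by glmTreat, 35 by the adjusted p alone and 0 at a fold limit of 1, and 1 was down by the adjusted p alone. The EGF fall (1) became 5 with upper-quartile factors, 4 without scaling, 3 by limma at either pseudocount and 4 with the FPKM filter, and 0 to 2 without single replicates. Bleogen pB1 DEGs among the 48 (0) were 14 by the adjusted p alone and 0 to 4 without single replicates. The 14 rises became 22 without the count filter or with the 6 libraries alone, 31 by DESeq2, 3 by limma at either pseudocount, and 2 to 36 without single replicates. The share of all genes that rose in these fits is not given here. For EGF against bleogen pB1, the 4 DEGs up became 0 by glmTreat, 1 with upper-quartile factors, 2 without scaling, 1 by each limma fit, 13 by the adjusted p alone, 0 at a limit of 1 and 0 to 7 without single replicates. DEGs down were 7 by the adjusted p alone. The 7 lower genes became 12 with upper-quartile factors and 11 without scaling, by limma with the smaller pseudocount and with the FPKM filter. Without single replicates the higher genes were 10 to 22 and the lower genes 6 to 11. The cause of these changes was not tested.

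Over all genes, EGF DEGs up (1875) were 1108 by glmTreat, 1244 by limma with the FPKM filter, 4018 by the adjusted p alone and 529 at a limit of 1, and down (2703) 4169 and 1363 by the last pair. Bleogen pB1 DEGs up (27) were 0 by glmTreat, 17 by limma on log2(FPKM + 1), 193 and 4 by the last pair, and 13 to 100 without single replicates. Down (156), they were 5 by glmTreat, 82 and 102 by limma at the larger and smaller pseudocount, 316 and 27 by the last pair, and 88 to 336 without single replicates. EGF over bleogen pB1 (1339 up, 2225 down) gave 732 and 1294 by glmTreat, 826 up by limma on log2(FPKM + 1) and 816 with the FPKM filter, 3537 and 3677 by the adjusted p alone, and 436 and 1022 at a limit of 1.

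Against untreated cells, the genes whose sign turned had fold changes near 0 and did not pass in the comparison where it turned. KIF20A and ASPM passed in other comparisons. Signs that turned between the ligands are not listed here. With EGF, CCNB2 was at -0.03 with upper-quartile factors, and TOP2A at -0.08 with them, -0.03 without scaling, -0.04 by each limma fit and -0.03 to 0.08 without single replicates. Without single replicates KIF20A ranged from -0.08 to 0.04, ESPL1 from -0.17 to 0.11 and ASPM from -0.16 to 0.03. CENPA with bleogen pB1 was at -0.0035 with upper-quartile factors and -0.07 to 0.09 without single replicates.

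With a block for the replicate number, DEG counts of the 48 were 18 up with EGF, 0 with bleogen pB1 and 4 for EGF over bleogen pB1, and the medians 0.38, 0.30 and 0.09. Whether the replicate numbers pair the libraries is not known. Deviations of same-numbered libraries correlated at 0.207, -0.0304 and 0.113 for bleogen pB1 with untreated cells. They correlated at 0.0449, 0.0355 and 0.0039 for EGF with untreated cells, and at 0.0562, 0.0378 and 0.0269 between the ligands. Some libraries correlated best with their own number and others did not. With so few libraries per group, these values cannot decide whether the numbers pair them. The lowest count of any of the 48 genes in a library was 388, and an effect of depth was not tested. With a median SE of 0.08, none with an absolute log2 fold change under 0.2 passed against untreated cells.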
